A study of Homo sapiens with 4 samples.

Results

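Mid-range H3K27ac-associated loops with 1 promoter anchor were taken from the loop list of WT M14 cells and from that of M14 cells after STAG2 knockdown (KD). A loop was counted when its 5 kb anchors lay at least 50 kb and less than 500 kb apart and exactly 1 of them held an annotated transcript start of any gene. This anchor is called the promoter anchor and the other the distal anchor. By this rule 7585 of 27289 loops were chosen in the WT list and 6973 of 25621 in the STAG2 KD list. Counted over both lists, they were 11914 of 42529 different loops.

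M14 is a human melanoma cell line, grown here under puromycin with a short hairpin RNA against STAG2 that doxycycline switches on. STAG2 KD cells were grown with doxycycline for 5 days and WT cells without it, so both groups carried the hairpin and only 1 received the drug. In these lists an effect of doxycycline itself and of the knockdown cannot be told apart, and they cover no other line or hairpin. The study's work in other melanoma lines measured expression and not loops. H3K27ac HiChIP, captures DNA contacts in which a fragment carries histone H3 acetylated at lysine 27. The labels name 4 samples, 2 per group, of which the first of each group has the loop list used here. Whether a list merges replicates was not stated. The lists hold positions only, so read depth was unknown, a loop can be missing because it fell just short of the caller's limit, and no difference has a replicate check. All intervals below are 95% intervals for the counting of loops, which treat neighbouring loops as independent although they are not, and no p-value was computed.

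Cohesin is a ring-shaped complex that extrudes chromatin loops and is halted at sites bound by CTCF, and STAG2 and STAG1 are alternative subunits of it. A promoter that contacts an active element without a promoter of its own is the usual picture of a promoter reached by its enhancer, and an enhancer need not act on the gene nearest to it. H3K27ac marks active enhancers and active promoters alike, and a loop shows proximity, not regulation. STAG2, on chromosome X, was not analysed here, since the loops lay on chromosomes 1 to 22. Among marker genes of cell types, 14 of 19 melanocyte lineage genes had a start in some loop anchor in each list. The corresponding counts were 2 of 7 for keratinocyte, 2 of 7 for fibroblast, 2 of 7 for leukocyte and 0 of 4 for endothelial genes. The melanocyte genes TYR, OCA2, KIT and TRPM1 had none. The share over all protein-coding genes is not given here, so these counts are a description and do not settle the cell type.

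Sequences of 3 kinds show what lay in the anchors. The first are the promoters of TRIB2, ZNF217 and NFATC2, which carried the most loops over both lists. The sequences are RefSeq promoters of the GRCh38.p14 table, in which all 3 genes were found, and an exact match placed them on GRCh37 (hg19). They run from 250 bases before to 50 bases after the annotated start, on the strand of the gene, and capitals mark the bases from the start onwards.
TRIB2, chr2:12856812-12857111, plus strand: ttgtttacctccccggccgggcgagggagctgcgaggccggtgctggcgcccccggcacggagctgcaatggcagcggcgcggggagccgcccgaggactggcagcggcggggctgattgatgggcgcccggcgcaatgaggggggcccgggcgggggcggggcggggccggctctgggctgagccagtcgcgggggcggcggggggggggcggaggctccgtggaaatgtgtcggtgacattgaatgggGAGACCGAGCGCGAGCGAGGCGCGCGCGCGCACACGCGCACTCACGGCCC
ZNF217, chr20:52210329-52210628, minus strand: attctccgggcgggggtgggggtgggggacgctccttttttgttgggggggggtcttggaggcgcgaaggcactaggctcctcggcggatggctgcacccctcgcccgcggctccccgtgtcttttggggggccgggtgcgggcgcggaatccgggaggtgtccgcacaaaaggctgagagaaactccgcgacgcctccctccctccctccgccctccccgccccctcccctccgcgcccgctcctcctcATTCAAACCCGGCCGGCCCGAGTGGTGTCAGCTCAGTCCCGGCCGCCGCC
NFATC2, chr20:50179329-50179628, minus strand: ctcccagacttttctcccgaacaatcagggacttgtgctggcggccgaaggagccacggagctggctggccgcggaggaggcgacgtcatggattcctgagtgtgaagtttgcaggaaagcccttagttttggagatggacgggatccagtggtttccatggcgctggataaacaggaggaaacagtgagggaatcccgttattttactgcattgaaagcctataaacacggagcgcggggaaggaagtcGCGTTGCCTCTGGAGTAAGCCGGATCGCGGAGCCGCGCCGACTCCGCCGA

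The second set comes from the distal anchor with the most loops over both lists, a 5 kb bin in an intron of the phospholipase gene PLA2G6 (chr22:38570001-38575000, hg19), and was chosen after its values were seen. Capitals mark matches to TGANTCA, the site of AP-1 factors, and to TCANGTGA, a form of the M-box read by MITF, the master regulator of the melanocyte lineage. Each printed match is shown with the bases on either side. The bin held 2 AP-1 matches, both printed, and 3 M-box matches, of which the 1 that reads the same on both strands is printed.
AP-1, chr22:38571839-38571885, plus strand: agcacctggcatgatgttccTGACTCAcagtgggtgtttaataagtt
AP-1, chr22:38574190-38574236, plus strand: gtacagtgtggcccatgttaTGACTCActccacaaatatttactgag
M-box, chr22:38574002-38574049, plus strand: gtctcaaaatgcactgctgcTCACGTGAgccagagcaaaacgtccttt

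The last set is the only shared loop with 1 strict CTCF core (AGGGGGCGC) in each anchor, pointing towards each other. It joined the promoter of MOSMO, a regulator of Hedgehog signalling, to a distal anchor 70 kb away within the same gene. Capitals mark the core.
MOSMO promoter anchor, chr16:22019487-22019535, plus strand: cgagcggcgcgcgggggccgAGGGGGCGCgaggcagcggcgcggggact
MOSMO distal anchor, chr16:22089204-22089252, minus strand: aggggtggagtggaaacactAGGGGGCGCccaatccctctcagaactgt

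Loops with 1 promoter anchor were the most common kind of mid-range loop in both states. They made up 40.7% of 18614 mid-range loops in the WT list (40.0 to 41.5) and 42.2% of 16518 in the STAG2 KD list (41.5 to 43.0). The median distance between anchors was 130 kb in WT cells and 135 kb after STAG2 KD, with means of 164 kb (SD 105) and 167 kb (SD 108). The 2 lists thus differed in distance by far less than the spread among loops. Near the limits of the rule, loops with 1 promoter anchor numbered 357 at 45 kb, 311 at 50 kb, 14 at 495 kb and 11 at 500 kb in the WT list. After STAG2 KD these counts were 328, 316, 13 and 12. The count therefore depends on the lower limit and hardly on the upper one.

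Sharing between the lists was then examined. A loop was called shared when its 2 bins were identical in WT and STAG2 KD. In all, 2644 loops were shared, 4941 were found in the WT list only and 4329 in the STAG2 KD list only. The WT-only loops were 65.1% of the WT loops of this kind, against 62% of all WT loops (background), and the STAG2 KD-only loops were 62.1%, against 59.5% of all STAG2 KD loops. Absence from the other list was therefore close to the background in both directions. When each anchor could lie up to 2 bins away, the shared part went from 34.9% (33.8 to 35.9) to 46.8% in WT cells and from 37.9% (36.8 to 39.1) to 51.3% after STAG2 KD.

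Compared with the other mid-range loops, those with 1 promoter anchor lay in the middle. Mid-range loops with a promoter in both anchors were shared in 41.1% of 4679 WT cases (39.7 to 42.6) and 46.1% of 4180 STAG2 KD cases (44.5 to 47.6). Those with no promoter were shared in 29.8% of 6350 (28.7 to 31.0) and 35.3% of 5365 (34.0 to 36.6). The intervals of the 3 classes did not overlap in either list. Loops with 1 promoter anchor were shared less often than those with promoters at both ends on 19 of 22 chromosomes in each list. They were shared more often than those without promoters on 20 of 22 chromosomes in the WT list and on 16 of 22 in the STAG2 KD list.

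**Figure D1:**
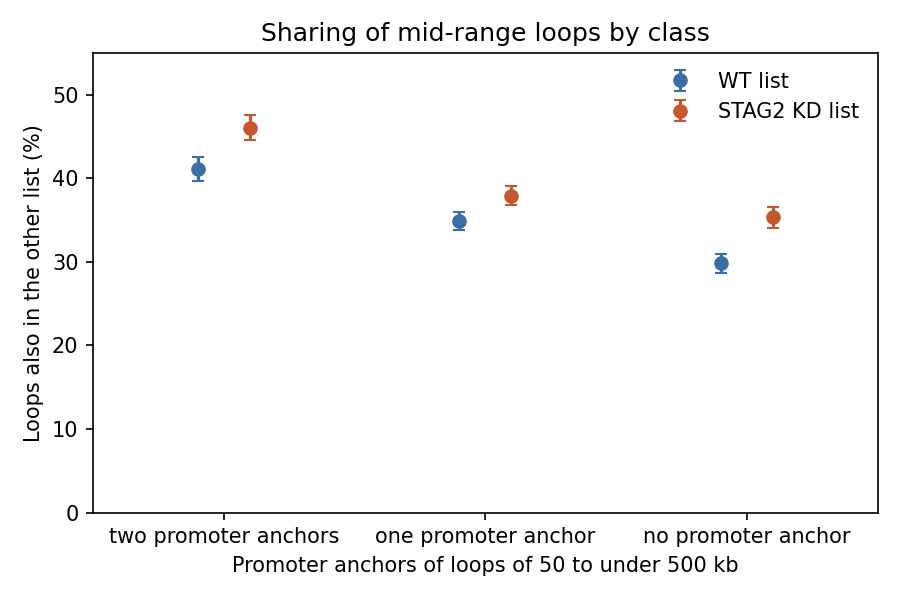
Percentage of mid-range loops that were also in the other list (vertical axis), for loops with promoters in both anchors, in 1 anchor and in none (horizontal axis), in the WT list (blue) and the STAG2 KD list (orange). Points are shares and bars exact 95% intervals for counting; loops with 1 promoter anchor, at 34.9% and 37.9%, lie between the other classes in both lists.

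Sharing was compared across distances. In the WT list the shared part went from 38.1% of loops of 50 to 75 kb (35.6 to 40.7) to 33.2% of those of 150 to 200 kb (30.3 to 36.1). In the STAG2 KD list it was highest at 75 to 100 kb, with 42.8% (39.7 to 46.0), and lowest at 200 to 300 kb, with 35.4% (32.7 to 38.2). The extremes overlapped in their intervals in the WT list but not in the STAG2 KD list. Shared loops had a median distance of 125 kb (quartiles 80 and 220 kb), against 135 kb for WT-only (85 and 220 kb) and 135 kb for STAG2 KD-only loops (80 and 230 kb).

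The anchors of unshared loops were often still in use in the other state. Of the WT-only loops, 80.9% had a promoter anchor that was an anchor of some loop in the STAG2 KD list (79.8 to 82.0), and 57.1% had such a distal anchor (55.7 to 58.5). For STAG2 KD-only loops these shares were 82.4% (81.3 to 83.6) and 57.6% (56.1 to 59.1). Both anchors were used in the other list, but not joined to each other, in 44.2% of WT-only loops and in 46.1% of those of the STAG2 KD list alone, and neither anchor was used in 6.13% and 6.01%. Losing both ends was thus the rarest outcome in each direction. Promoter and distal anchors were also compared at similar numbers of loops. Among anchors with 1 loop of any kind in their own list, 47.1% of WT promoter anchors were used after STAG2 KD, against 35.7% of distal anchors. In the other direction these shares were 53.2% and 40.5%. Among anchors with 5 or more loops the shares were 98.2% and 97.2% for WT, and 99.0% and 95.1% for STAG2 KD. Among those with 2 to 4 loops they were 84.6% and 76.4% for WT, and 86.1% and 77.5% for STAG2 KD. Most anchors with 5 or more loops were thus found in both lists. Promoter anchors were kept more often than distal anchors in every class. Their intervals overlapped only at 5 or more loops in the WT list.

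**Figure D2:**
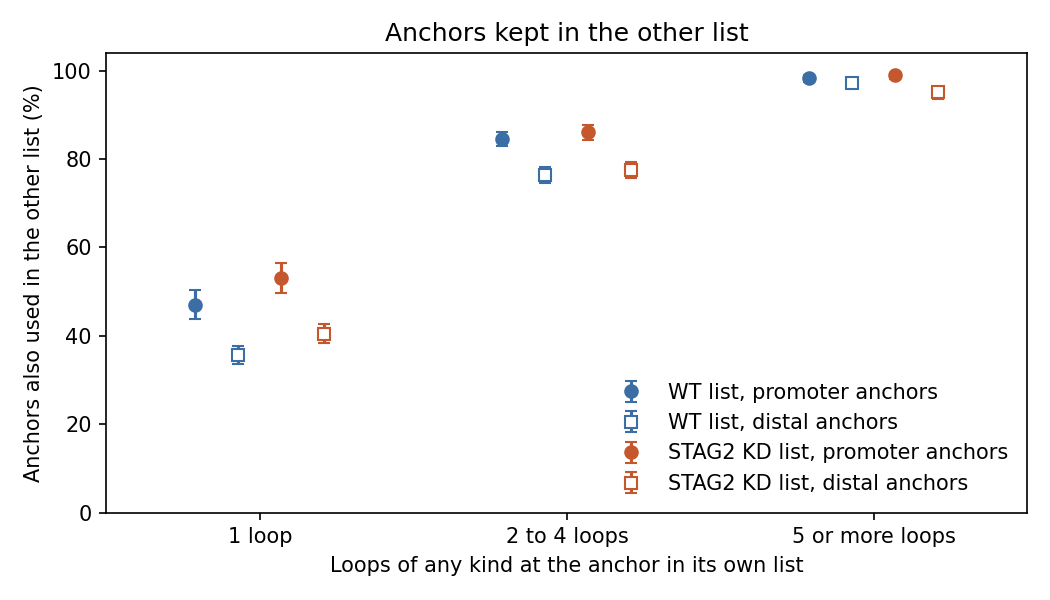
Percentage of distinct anchors used by any loop of the other list (vertical axis), by the number of loops at the anchor in its own list (horizontal axis). Filled circles are promoter anchors and open squares distal anchors, blue for the WT list and orange for the STAG2 KD list, with exact 95% intervals; the share rises from 35.7% for WT distal anchors with 1 loop to 99.0% for STAG2 KD promoter anchors with 5 or more.

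Next, the genes at the promoter anchors were examined. A protein-coding gene with a start in the promoter anchor is called a target, which names a position and not an effect. WT loops reached 3335 targets, 17.3% of the 19222 protein-coding genes on chromosomes 1 to 22, and STAG2 KD loops 3117, or 16.2%. In total, 2133 genes were targets in both lists, which is 64.0% of the WT targets (62.3 to 65.6) and 68.4% of the STAG2 KD targets (66.8 to 70.1). Genes were therefore shared more often than loops, as 1 loop in common is not needed for a gene to be reached in both states. Of the 2133 genes, 417 had the same distal anchors in both lists, 1181 had some in common and 535, or 25.1% (23.3 to 27), had none in common. The last share was 20.1% when anchors could lie 2 bins apart. Most targets had few loops, with 1 loop in 56.8% of WT and 55.6% of STAG2 KD targets, and at least 10 loops in 37 and 30 genes. A further 1676 WT and 1560 STAG2 KD loops had no protein-coding start in the promoter anchor, and 72.3% and 72.8% of these had the start of a long non-coding RNA there.

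The gene with the most loops was TRIB2 (chr2:12857036-12882860), a pseudokinase of the Tribbles family that acts as a scaffold for protein degradation. It had 22 loops in WT cells and 25 after STAG2 KD, of which 17 were shared. They spanned 80 to 480 kb from 1 promoter anchor, whose sequence is given above, and passed over no protein-coding start. Most WT loops of TRIB2 were thus also in the STAG2 KD list. ZNF217 (chr20:52183610-52226446), a transcriptional repressor often amplified in tumors, had 15 and 17 loops with 8 shared. NFATC2 (chr20:50003494-50179370), a calcium-regulated transcription factor, had 15 and 14 loops with 6 shared. At ZNF217 and NFATC2 the totals hardly differed while fewer than 10 loops were the same.

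A similar stability of the totals was seen at IGF1R, the receptor of insulin-like growth factor 1, with 13 WT and 15 STAG2 KD loops and 6 shared. MKLN1, which encodes muskelin of a ubiquitin ligase complex, had 13 in each list and 6 shared. APIP, an enzyme of methionine salvage, had 13 and 12 with 9 shared, and CABLES1, a binding partner of cyclin-dependent kinases, 13 and 12 with 4 shared. Among the other genes in the top 10 of a list, leaving aside MSI2 and BTBD3 described below, TRIB1, a relative of TRIB2, had 11 and 12 loops with 8 shared. DUSP10, a phosphatase of the stress kinases p38 and JNK, had 10 and 12 with 5 shared, and SREBF1, a transcription factor of lipid synthesis, 9 and 12 with 7 shared. VPS13D, a lipid transfer protein, had 17 and 11 with 8 shared. From TRIB2 to VPS13D in this account, VPS13D was the only gene whose totals differed by more than 3 loops.

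Among the 4319 genes that were a target in either list, 1599 (37%) had more loops after STAG2 KD and 1865 (43.2%) had more in WT cells. These shares are the background for the genes named next, which were chosen by the size of their difference, so that their counts are a description. BIRC2, the ubiquitin ligase cIAP1, had 3 WT and 10 STAG2 KD loops, and all 3 WT loops were shared. CSGALNACT1, an enzyme of chondroitin sulfate synthesis, had 3 and 9 with 1 shared, and HMGB1, a chromatin protein, 1 and 7 with that 1 shared. IRF2BP2, a corepressor of IRF2, had 6 and 11 with 3 shared. AK5, an adenylate kinase, had 5 and 10 with 3 shared, and the RNA methyltransferase gene TRDMT1 5 and 10 with 2 shared. EMP1, a membrane protein, and PHC2, a subunit of Polycomb repressive complex 1, each had 3 and 8 with all 3 WT loops shared. At BIRC2, HMGB1, EMP1 and PHC2 the STAG2 KD list thus held every WT loop and others besides. PTPN14, a phosphatase that restrains the Hippo effector YAP, had 1 and 6 with none shared, and ASAP1, a regulator of ARF GTPases, 0 and 5. When loops of every distance and class are counted, PHC2 had 11 WT and 10 STAG2 KD loops. Its total over all loops was thus not higher after STAG2 KD. With adjacent distal bins joined, BIRC2 reached 3 WT and 9 STAG2 KD distal places and CSGALNACT1 2 and 5. On that count TRDMT1 had 5 and 9, EMP1 2 and 6 and ASAP1 0 and 4.

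Among the genes with the largest excess in WT cells was MSI2 (chr17:55333212-55762050), an RNA-binding protein of stem cells, with 16 WT and 6 STAG2 KD loops and 3 shared. LDLRAD4, an inhibitor of TGF-beta signaling, had 13 and 3, and HPS1, which is needed to make melanosomes and other lysosome-related organelles, 12 and 3. SEPTIN9, a cytoskeletal GTPase, had 10 and 1. In these 3 genes every STAG2 KD loop was also a WT loop. ARID1B, a subunit of the BAF chromatin remodelling complex, had 9 and 0, and KCTD15, a regulator of neural crest formation, 8 and 0. No loop at ARID1B or KCTD15 had a partner within 2 bins in the STAG2 KD list, and counts over loops of all kinds went from 13 to 2 and from 8 to 1. BTBD3, involved in dendrite orientation, had 15 and 7 with 5 shared. SOX6, a transcription factor related to SOX10, had 11 and 3, DLC1, a tumor suppressor, 11 and 4, and IVNS1ABP, an actin-binding protein, 11 and 4. MSI2, VPS13D, ARID1B, SEPTIN9, LDLRAD4 and IGF1R have starts in several anchors, and their loops were summed over 3 to 5 promoter anchors in the WT list. Loops to neighbouring distal bins were also counted separately. With adjacent distal bins joined, the WT loops reached 9 distal places at MSI2, 5 at ARID1B and 7 at SEPTIN9. Over loops of every distance and class, MSI2 had 21 WT and 14 STAG2 KD loops and SEPTIN9 24 and 18.

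**Figure D3:**
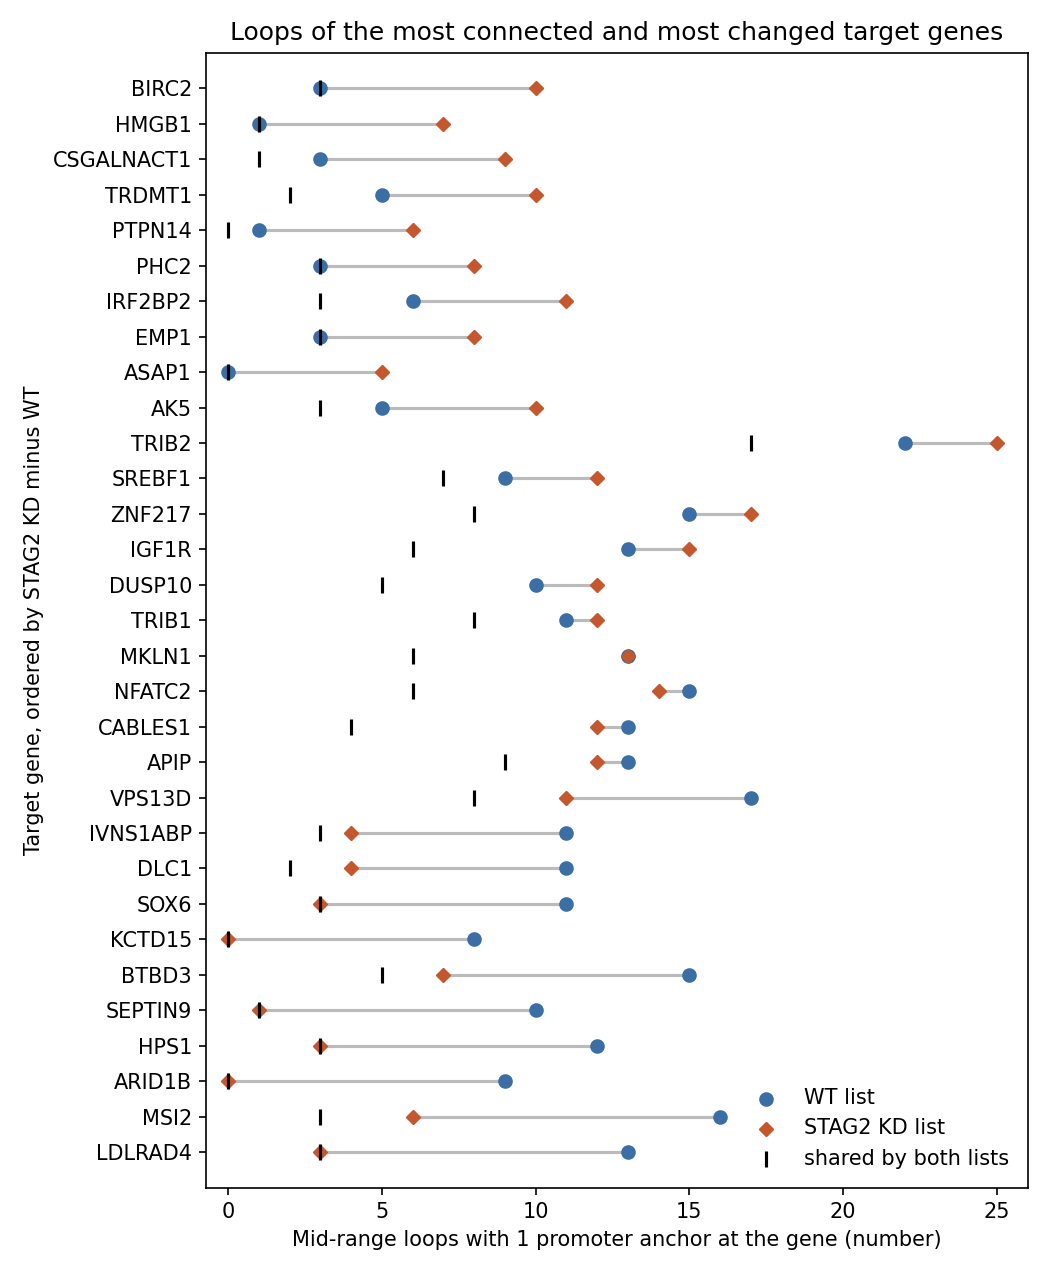
Number of mid-range loops with 1 promoter anchor (horizontal axis) at each of 31 target genes (vertical axis, ordered by STAG2 KD minus WT): the 10 with the most loops in each list and the 10 with the largest excess in each direction. Blue circles are the WT list, orange diamonds the STAG2 KD list and black ticks the loops shared by both; TRIB2 stands at 22 and 25 with 17 shared, while ARID1B and KCTD15 are at 0 after STAG2 KD.

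Genes reached in 1 list only numbered 1202 for WT and 984 for STAG2 KD, and 81.0% and 80.6% of them had 1 loop. Of the WT-only genes, 64.2% still had a start in some anchor of the STAG2 KD list (61.4 to 66.9), and of the STAG2 KD-only genes 72.3% had one in the WT list (69.3 to 75). Besides ARID1B and KCTD15, the WT-only genes with the most loops were SAMD4A, an RNA-binding repressor of translation, with 6, and CYRIB, an inhibitor of RAC1 signaling, and GABPB1, a subunit of an ETS family transcription factor, with 5 each. On the STAG2 KD side, ASAP1, CAPN2, a calpain protease, MEF2A, a MADS-box transcription factor, and USPL1, a SUMO protease, had 5 each, and ANKRD29 had 4. USPL1 and HMGB1 start less than 5 kb apart on opposite strands, so their loops overlap. CAPN2 and ANKRD29 had no WT loop of any distance or class, against 10 and 6 after STAG2 KD. The other genes named here had loops of another distance or class in the other list. Counted over every distance and class, SAMD4A had 9 WT and 5 STAG2 KD loops, CYRIB 11 and 6, and GABPB1 14 and 9. ASAP1 had 5 and 9, MEF2A 3 and 7, and USPL1 2 and 7.

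Gene lists were then counted in the same way, and the number with more loops in each state is given out of the genes of the list that were a target in either state, to be read against the background of 37% and 43.2% above. Among 19 melanocyte lineage genes, 11 were targets in WT cells and 9 after STAG2 KD, and of the 13 that were a target in either, 6 had more loops in each direction. MITF had 4 WT loops, of 70 to 180 kb, and none after STAG2 KD, and its loops of every kind numbered 7 and 2. DCT, an enzyme of melanin synthesis, had 2 and 0, and PMEL, the protein of the melanosome fibrils, 1 and 0. RAB27A, which moves melanosomes, had 2 and 4, BCL2A1, an anti-apoptotic MITF target, 0 and 2, PAX3 3 and 4, SOX10 1 and 2, and EDNRB, the endothelin receptor of this lineage, 4 and 3. The list as a whole had 22 and 20 loops, summed over its genes. PMEL and its neighbour CDK2 each had 1 WT loop of 155 kb, which may be 1 loop counted for both genes. Both stand among the 6 genes with more loops in WT cells. MITF, DCT, PMEL and CDK2 thus had loops of this kind in the WT list only. RAB27A, BCL2A1, PAX3, SOX10, MLANA and MC1R had more of them after STAG2 KD. Over loops of every distance and class, however, SOX10 had 4 in each list and MC1R 6 and 5. On that count RAB27A had 7 and 10, BCL2A1 0 and 2, PAX3 5 and 7 and MLANA 3 and 5. DCT had 3 and 0, PMEL 7 and 4 and CDK2 7 and 2. With adjacent distal bins joined, RAB27A reached 2 distal places in each list. Both BCL2A1 loops had a partner within 2 bins in the WT list.

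Of 22 type I interferon pathway genes, 7 and 9 were targets. Of the 10 that were a target in either list, 5 had more loops after STAG2 KD and 3 had more in WT cells. At the receptor, IFNAR1 had 0 WT and 2 STAG2 KD loops and IFNAR2 1 in each list, not the same one. Their kinase JAK1 had 0 and 1. Of the transcription factors, IRF1 had 1 and 3, IRF2 6 and 5, and IRF7 0 and 1. IRF9, the DNA-binding part of the ISGF3 complex, was not a target in either list. A single STAG2 KD line lay off the 5 kb grid, and it joined IRF9 and RNF31 to the promoter of GMPR2, 76 kb away, so it has a promoter at both ends and does not belong here. Apart from IRF2, no gene of this list had more than 3 loops in either state, and these counts are too small to order the states.

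In the group of 17 genes that are targets or feedback inhibitors of the ERK pathway, 9 and 12 were targets, with 27 and 36 loops in all. Of the 13 that were a target in either list, 8 had more loops after STAG2 KD and 4 had more in WT cells. SPRY2, a Sprouty inhibitor, had 8 loops in each list with 5 shared. DUSP6, a phosphatase of ERK, had 3 and 4, and none of them was shared even within 2 bins. CCND1, which encodes cyclin D1, had 3 and 6, and SPRED2, another inhibitor of the pathway, 0 and 3. When loops of every distance and class are counted, DUSP6 had 9 WT and 6 STAG2 KD loops and SPRY2 20 and 13. On the same count CCND1 had 5 and 8 and SPRED2 0 and 7. At DUSP6 the direction thus depended on which loops were counted. Among 18 cell cycle regulators, which also include CCND1, 9 and 10 were targets with 19 and 28 loops. CDKN2B, an inhibitor of CDK4 and CDK6, had 3 and 7 loops and CDK6 had 3 and 6. Of the 11 that were a target in either list, 5 had more loops after STAG2 KD and 2 had more in WT cells. CCND1, CDK6 and CDKN2B together differed by more loops than the list as a whole.

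TGF-beta pathway genes were targets in 8 of 18 cases in each list, with 24 and 19 loops, and of the 9 that were a target in either, 4 had more loops in each direction. SMAD3, which carries the signal to the nucleus, had 2 WT and 5 STAG2 KD loops. SMAD7, its inhibitor, had 7 and 3, and the co-receptor TGFBR3 6 and 2. With adjacent distal bins joined, SMAD7 reached 4 and 3 distal places, TGFBR3 6 and 2, and SMAD3 2 and 4. Of 14 cohesin and CTCF genes, 3 and 4 were targets. STAG1, the alternative of STAG2 in the complex, had 9 WT and 6 STAG2 KD loops, with 4 shared. Over loops of every distance and class STAG1 had 12 and 13, so the direction depended on which loops were counted. Of 12 AP-1 subunits, 3 and 2 were targets, with 4 and 2 loops. As a comparison from housekeeping genes, 30 and 27 of 80 ribosomal protein genes were targets, and of the 36 that were a target in either list 10 had more loops after STAG2 KD and 17 had more in WT cells. None of these lists had a test, since there was 1 list of loops per state.

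Many loops passed over other promoters. A protein-coding gene was counted as passed over when it had a start strictly between the anchors and none in either anchor. At least 1 such gene was passed over by 56.6% of WT loops (55.5 to 57.7) and 59.6% of STAG2 KD loops (58.4 to 60.7). Exactly 1 gene was passed over by 26.6% and 27.9%, and exactly 2 by 11.8% and 12.3%. The share was 55.3% for shared loops (53.3 to 57.2), 57.3% for WT-only loops (55.9 to 58.7) and 62.2% for STAG2 KD-only loops (60.8 to 63.7). STAG2 KD-only loops were thus above WT-only loops by 4.92 percentage points (2.92 to 6.91), and on 16 of 22 chromosomes. On average 1.51 genes were passed over by a WT-only loop (SD 2.43) and 1.73 by a STAG2 KD-only loop (SD 2.87).

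The difference had the same direction within each class of distance and within each class of surrounding gene number. STAG2 KD-only loops were above WT-only loops in all 6 distance classes, from 42.4% against 37.6% at 50 to 75 kb to 78.1% against 74.1% at 300 to 500 kb. Their intervals were apart only at 150 to 200 kb, with 70.2% (66.4 to 73.8) against 62.6% (58.9 to 66.2). Grouped by the protein-coding genes within 500 kb of the loop's midpoint, the shares were 39.4% against 33.8% with at most 7 genes, 64.4% against 60.8% with 8 to 13 and 86.1% against 84.7% with more than 13. The intervals were apart only in the class with at most 7 genes (37.1 to 41.8 against 31.7 to 35.9). The number of genes within 500 kb includes the passed-over genes themselves, so these classes are not separate from the outcome. Its mean was 13.2 for STAG2 KD-only and 12.4 for WT-only loops, and its median 9 in both. Distances could still differ within a class, and the part of distance and gene number in the difference was not tested. A gap in the same direction was found in the other mid-range loops, with 73.8% against 70.0% for promoters at both ends (a difference of 3.82 points, 1.32 to 6.30) and 66.7% against 62.0% for no promoter (4.67 points, 2.55 to 6.78). It was therefore not particular to loops with 1 promoter anchor. When only passed-over genes with a start in an anchor of the same list were counted, the shares were 41.7% and 39.8%, and the difference of 1.91 points had an interval that included 0 (-0.0955 to 3.91). With genes of any type in place of protein-coding genes the difference was 1.78 points.

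**Figure D4:**
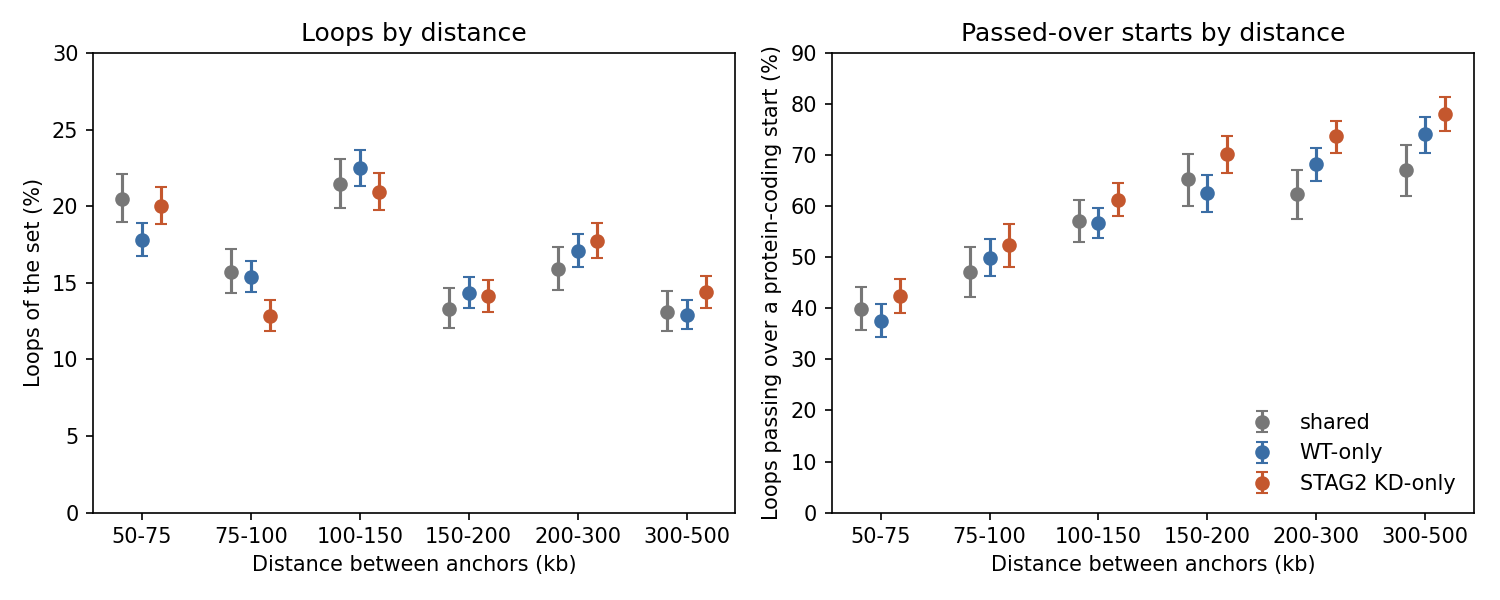
Left, percentage of the shared (grey), WT-only (blue) and STAG2 KD-only (orange) loops that fall in each class of distance between anchors in kb. Right, percentage of loops in each class that pass over a protein-coding start; points are shares and bars exact 95% intervals, and the orange points lie above the blue ones in all 6 classes, from 42.4% against 37.6% to 78.1% against 74.1%.

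The loops that passed over the most genes lay in a few gene-dense places. A shared loop of 410 kb on chromosome 17 passed over 37 genes of the cluster of keratins and keratin-associated proteins of hair, and only 2 of these genes had a start in any loop anchor. A STAG2 KD-only loop of 490 kb from the same distal anchor (chr17:39065001-39070000) passed over 41. On chromosome 11 a shared loop of 410 kb to WDR74, a ribosome assembly factor, passed over 30 genes, of which 29 had a start in an anchor, and a shared loop of 295 kb to EIF4A1, a translation initiation helicase on chromosome 17, passed over 29. WT-only loops to the start of a transcript that is not protein-coding, to MTA2, a subunit of the NuRD complex, and to the glycosyltransferase gene B3GAT3, in the same part of chromosome 11, passed over 32, 27 and 24 genes. The other STAG2 KD-only loops of this kind passed over 36 genes at RABL6 on chromosome 9 and 33 at DDX39B, an RNA helicase, in the major histocompatibility complex. The passed-over genes thus lay mostly outside loop anchors in the keratin cluster and mostly in loop anchors on chromosome 11.

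Over all loops, 5043 protein-coding genes were passed over in WT cells and 4967 after STAG2 KD, and 56.1% and 53.0% of them had a start in an anchor of that list. PLA2G6 was passed over most often, by 28 WT and 25 STAG2 KD loops. MAFF, a small MAF transcription factor, was passed over by 15 and 15 and BAIAP2L2, whose start lay in no anchor, by 16 and 12. KPNA7, an importin, was passed over by 15 and 12 and also had no start in an anchor. CUBN, the vitamin B12 receptor, was passed over by 9 WT and 21 STAG2 KD loops. These loops come from few places each and are not independent of one another.

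The target was the protein-coding gene with the start nearest to the distal anchor in 32.2% of WT loops (31.0 to 33.4) and 29.6% of STAG2 KD loops (28.3 to 30.8), among loops with a protein-coding target. It was nearest in 31.7% of WT-only loops and 27.4% of STAG2 KD-only loops, a difference of -4.27 points (-6.37 to -2.16), lower on 18 of 22 chromosomes. Passing over a start and not being nearest are related by geometry, so these differences are not separate findings. When only starts in a loop anchor of the same list could be nearest, the shares were 42.8% and 42.2%. No difference in the side of the distal anchor was detectable, with 47.6% of loops of each list upstream of the target and a difference between the private sets of -0.0285 points (-2.47 to 2.42).

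Distal anchors numbered 5629 in the WT list and 5158 in the STAG2 KD list, and 76.8% and 76.6% of them had 1 loop of this kind. They lay in the body of a protein-coding gene in 61.0% and 60.4% of cases, against 44.3% of all 5 kb bins without a start. The gene was the target itself in 18.7% of shared (17.2 to 20.2), 17.5% of WT-only (16.5 to 18.6) and 15.2% of STAG2 KD-only loops (14.1 to 16.3). A few distal anchors met many promoters. The PLA2G6 bin shown above had 10 WT and 9 STAG2 KD loops of 55 to 425 kb, 7 of them shared, and its targets in both lists included SOX10, the kinase gene CSNK1E, the helicase gene DDX17 and the RNA polymerase subunit gene POLR2F. A bin in an intron of EXTL1, a gene of the exostosin family (chr1:26350001-26355000), had 8 and 9 loops with 7 shared, to targets such as DHDDS, an enzyme of dolichol synthesis, and CEP85, a centrosome protein. A bin at MAPK8IP3, a scaffold of JNK signaling (chr16:1770001-1775000), had 8 and 10 with 5 shared. A bin at the kinase gene MOK (chr14:102725001-102730000) had 8 and 4, all 4 of them WT loops, to the chaperone gene HSP90AA1 and to WDR20. At PLA2G6 and EXTL1 most loops were thus the same in both states.

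Finally, short motifs were searched on both strands of the anchors. The strict CTCF core AGGGGGCGC was found in 1.49% of WT and 1.45% of STAG2 KD distal anchors, against 0.642% of all 5 kb bins without a start. In promoter anchors it was found in 8.17% and 7.80%, against 3.68% of all bins with a start. The anchors were also richer in G and C, at 43.5% and 43.6% in distal anchors against 40.2% in bins without a start, and the part of base composition in the shares was not tested. With the wider core AGNNGGCGC, which includes the strict core, the shares were 14.7% and 14.3% against 9.03% for distal and 42.2% and 41.3% against 23% for promoter anchors. Loops with 1 wider core in each anchor numbered 103 shared, 147 WT-only and 125 STAG2 KD-only, and the cores faced each other in 25.2% (17.2 to 34.8), 24.5% (17.8 to 32.3) and 31.2% (23.2 to 40.1). These intervals overlapped.

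The AP-1 site TGANTCA was found in 82.7% of the distal anchors of WT-only loops (81.5 to 83.8), 85.9% of those of shared loops (84.4 to 87.4) and 86.1% of those of STAG2 KD-only loops (85.0 to 87.2), against 79.7% of all bins without a start. The private sets did not overlap in their intervals, and G and C made up 43.6% of each. Over the whole lists the AP-1 site was found in 83.3% of WT and 85.6% of STAG2 KD distal anchors. In anchors of mid-range loops with no promoter the shares were 84.8% (84.0 to 85.7) and 87.0% (86.1 to 87.8). A gap in this direction was therefore not particular to loops with 1 promoter anchor, and its cause was not tested. The AP-1 site was present in most 5 kb bins of any kind. The M-box form TCANGTGA was found in 82.5% of WT-only (81.3 to 83.6) and 83.9% of STAG2 KD-only distal anchors (82.6 to 85.0), against 71.1% of bins without a start. Its letters also occur in Alu repeats, which were not removed. A match is a run of letters and not a bound site.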

How the data were processed

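H3K27ac HiChIP was described by the labels for 2 WT and 2 STAG2-KD samples of M14 cells, and 1 list per group was analysed. Groups were taken from the sample titles. Per the study's methods, the authors aligned reads to hg19 with HiC-Pro, called peaks with hichip-peaks and loops with FitHiChIP. Tool versions and the limit applied to the deposited lists were not given in the sources used here. The deposited values are positions (chromosome, start of the left anchor, end of the right anchor), with no read count or score, so depth is unknown. Carriage returns were removed.

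Distance was the difference of the anchor starts. Transcript starts came from GENCODE release 44 lifted to GRCh37. With 1 list per group, shares were given with exact Clopper-Pearson and differences with Newcombe intervals at 95%, and no test was run. The rule for named genes took the 10 with the most loops per list, the 10 with the largest excess in each direction, the 3 busiest distal anchors per list, the 3 loops of each set passing over the most genes, and genes of fixed lists. Genes reached by 1 list only, and genes passed over most often, were added after their values were seen, and not all of the latter are reported here. Members, lists and rules were chosen with earlier results of these data known. Alternatives covered the promoter definition, matching tolerance, list length, distance limit and each chromosome. The functions were tested on simulated data for WT against STAG2-KD, and all 8 planted values were recovered. Computation used Python 3.11.15, numpy 2.4.6, scipy 1.17.1 and matplotlib 3.10.9.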

Additional observations from a re-analysis of the deposited data

How the results depend on the processing

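No paired analysis was possible because there was 1 list per group. Of 678 values of 27 results under the alternatives, 608 stayed within their own counting interval, spread or 1.5 times the count. Of the 678 values, 506 came from leaving out 1 chromosome, which removes little of the data, and 499 of those stayed. A reversal could be scored only for the difference in passing over between the private sets, and none was found there. Shares, counts and distances could only stay or move. Values are given for WT and then STAG2 KD. With the earlier 50% of each chromosome's lines, loops numbered 3827 and 3494, targets 1856 and 1735, targets shared 56.2% and 60.1%, loops passing over a gene 50.8% and 53.8% (genes in a loop anchor 30.1% and 32.0%), and the target was nearest in 37.1% and 33.7%. From 100 kb upwards, loops numbered 4986 and 4593, made up 43.0% of STAG2 KD mid-range loops, 36.7% of STAG2 KD loops were shared, targets were shared in 61.1% and 65.6%, 63.6% and 67.2% passed over a gene (47.6% and 48.4% for genes in anchors), and 25.4% and 22.3% reached the nearest target. With protein-coding starts only, the class made up 37.0% and 38.1%, passing over genes in anchors 41.0% and 41.8%, nearest 30.6% and 28.1%, and STAG2 KD targets were shared in 70.5%. With starts up to 5 kb from the anchor these were 37.8% and 37.9% for the class, 36.3% and 36.9% for genes in anchors and 42.3% and 39.7% for nearest, with 55.2% and 57.4% passing over a gene, 33.3% of WT loops shared and 20.2% of common targets without a common distal anchor. Within 1 and 2 bins, the shared part was 40.4% and 46.8% of WT and 44.2% and 51.3% of STAG2 KD loops, while 22% and 20.1% of common targets had no common distal anchor. Counting genes of any type, 88.2% and 89.3% passed over one (54.6% and 55.9% in anchors) and the difference between private sets, chosen after seeing the data as were all its alternatives, was 1.78 points. With the 5-prime-most start they were 48.4% and 51.3% (29.7% and 30.5%). With equal numbers of lines, 36.4% of STAG2 KD loops were shared. Nearest among starts in anchors gave 42.8% and 42.2%, and the wider CTCF core 14.7% and 14.3% of distal and 42.2% and 41.3% of promoter anchors. Leaving out chromosomes 1, 2, 17 or 19 moved some values. Passing over went to between 55.4% (without 1) and 57.8% (without 2) in WT and between 58.4% (without 17) and 60.8% (without 2) in STAG2 KD. Passing over genes in anchors went to 38.3% without 1 and 38.4% without 17 in WT, and to 39.1% without 19 in STAG2 KD. The difference in passing over ran from 4.38 to 5.40 points across chromosomes left out. The cause of these changes was not tested, beyond the fewer loops or wider definitions of each alternative. Depth was unknown and replicates were absent, so variation between cultures could not be measured.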
